A study of Mus musculus with 12 samples.

Results

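Some CCCGGG sites of colonic adenomas are neither free of methylation nor fully methylated, and 1875 of them varied by less than a set limit between adenomas of the same genotype. These stable intermediate sites were autosomal, had at least 100 reads in 11 of 12 adenomas, averaged 20% to below 80% methylation in the 3 control adenomas, and had a pooled within-genotype standard deviation below 10 percentage points over those 11 adenomas. They made up 11.1% of the 16868 autosomal sites of that depth, and 59.3% of the 3162 such sites at intermediate level. The other 1287 intermediate sites, with a standard deviation of 10 points or more, are called variable below. The control levels and the spread chose the sites, so both are given as a description and were not tested.

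A CpG is read as methylated or unmethylated on each DNA molecule, so an intermediate level in a whole tissue means that both kinds of molecule were present. At imprinted control regions the methylated molecules come from one parent's chromosome, and elsewhere an intermediate level can come from a mixture of cells or from copies that differ within a cell type. Removal of methylation can begin with Tet1, an enzyme that oxidises the methyl group of 5-methylcytosine. The glycosylase Tdg cuts out the more oxidised bases, and repair then puts an unmethylated cytosine in their place. The Min allele is a truncating mutation of Apc, a tumour suppressor, and mice that carry it grow intestinal adenomas.

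The tumours were adenomas of the colon, dissected from C57BL/6J mice 150 to 160 days old, all carrying the Min allele (ApcMin/+). The 4 genotypes, with 3 adenomas each, were Tet1-/- Tdg+/+ (Tet1 null), Tet1+/+ TdgN151A/+ (Tdg heterozygous, with 1 copy of a form of Tdg lacking glycosylase activity), Tet1+/- TdgN151A/+ (double heterozygous) and Tet1+/+ Tdg+/+ (control). Each value comes from a whole adenoma with all of its cell types, and whether any 2 adenomas shared a mouse is not in the labels. The p-values therefore describe the spread among these adenomas, which may be less than that among mice. The level at a site is the percent of reads from molecules that were cut as methylated, adjusted by the authors with spiked standards, and differences are in percentage points. Libraries held 2349576 to 18865833 reads, and median depth at the 1875 sites was 329 to 754 reads in the 11 adenomas and 91 reads in double heterozygous adenoma 3, the library the choice of sites did not use. Reads on the Y chromosome were 2402 or more in 6 adenomas, 485 in the shallow one and 10 or fewer in the other 5, which were Tet1 null 3, Tdg heterozygous 1 and 3, and control 2 and 3. The labels mention no molecular identifiers, and the counting errors given cover the counting of reads only, while the intervals cover sampling over sites. Positions are on the mm9 build. They were not assigned to genes, since the gene and promoter tables at hand are of another build.

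Stable sites lay mostly in the upper part of the intermediate range. The median of their control means was 61.6%, against 51.02% at variable sites. Levels of 60 to 80% were held by 989 stable sites (52.7%) and by 420 variable sites (32.6%). Levels of 40 to 60% were held by 419 stable sites (22.3%) and 459 variable sites (35.7%), and levels of 20 to 40% by 467 stable sites (24.9%) and 408 variable sites (31.7%). Among intermediate sites at 70 to 80%, 79.0% were stable, and in each step of 10 points between 30 and 60% the stable share was under 50%. The limit of 10 points was the same at every level, and the median counting error was 1.72 points at 70 to 80% and 1.99 points at 50 to 60%. In the band of 45 to 55%, 211 stable sites were found, and their median depth was 625 reads.

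**Figure D1:**
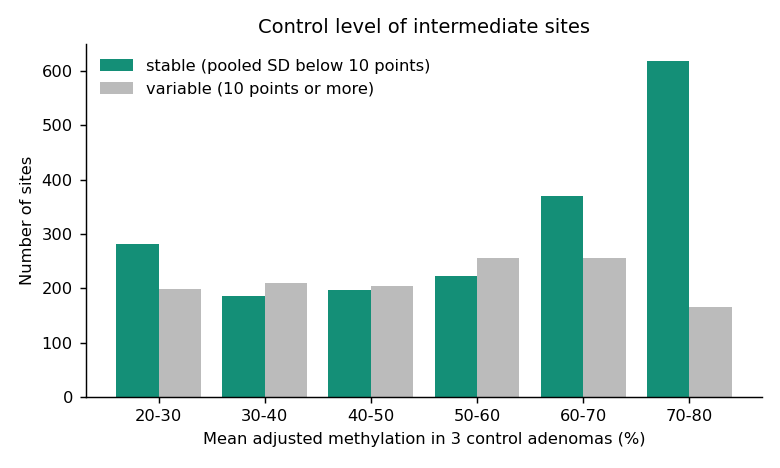
Number of stable and variable intermediate sites (vertical axis) by the mean adjusted methylation of the 3 control adenomas in steps of 10 points (horizontal axis). Stable sites outnumber variable ones most clearly at 70 to 80%, with 619 against 165 sites, and are the fewer from 30 to 60%.

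The spread chose these sites, and it is described here beside the counting error of the reads. The pooled standard deviation had a median of 7.20 points over the stable sites (interquartile range 5.65 to 8.49), and 12.4 points over the variable sites. Counting error alone, from the reads of each library, gives a median of 1.81 points at the stable and 1.84 points at the variable sites. The spread was at or below its counting error at 11 of 1875 stable sites (0.587%) and at 0 of 1287 variable sites. Among stable sites, 7 had a standard deviation below 2 points and 131 from 2 to 4 points, while 633 lay between 8 and 10 points, close to the limit.

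The spiked standards were read in the same libraries, but the levels were adjusted with them, so their spread is no independent measure of assay noise. Of the 18 standards, 13 read at an intermediate level, from 23.7 to 72.9% in control libraries. Their pooled standard deviation over the same 11 libraries was 0.362 to 1.59 points with a median of 0.750 points, on 546 to 41356 reads. The standards had a smaller counting error than the genomic sites, with a median counting error of 0.561 points.

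**Figure D2:**
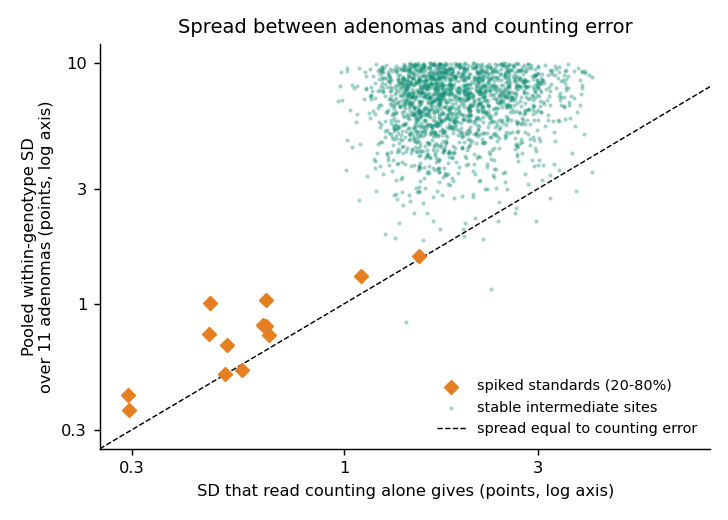
Pooled within-genotype SD over 11 adenomas (vertical axis, points, log scale) against the SD that read counting alone gives (horizontal axis, points, log scale), for the 1875 stable sites (small points) and the 13 intermediate standards (diamonds). The standards lie near the dashed line of equal values, and the sites lie above it except for 11 of them.

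Among the 5 runs with the most stable sites no more than 500 bp apart, the least variable lay on chromosome 2, between positions 174124966 and 174125759. It was one of 2 runs with 4 sites, and its mean pooled standard deviation of 2.21 points was the lowest of the 5. At position 174125553 the level was 34, 35.4 and 34.8% in Tet1 null, 33.6, 35.02 and 33.4% in Tdg heterozygous, 35.8, 36.8 and 44.7% in double heterozygous, and 34.7, 35.2 and 36.6% in control adenomas. With a pooled standard deviation of 0.844 points this site was the least variable of all 1875, and its counting error was 1.42 points on 630 to 1366 reads. The value that stands apart, 44.7%, belongs to double heterozygous adenoma 3, the shallow library.

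Along that run the level declined in small steps in the same order in control adenomas. The control means were 42.4, 39.3, 35.5 and 33.5% at positions 174124966, 174125155, 174125553 and 174125759. At the last of these, also among the 5 members with the smallest spread (1.85 points), the level was 31.7, 31.2 and 30.9% in Tet1 null, 32.2, 34.3 and 30.3% in Tdg heterozygous, and 33.99, 31.1 and 35.4% in control adenomas. Double heterozygous adenomas 1 and 2 were at 31.3 and 34.7%, and adenoma 3 at 49.3% on 36 reads. At the first site that adenoma was at 17.9% on 24 reads, where adenomas 1 and 2 were at 35.8 and 34.99%. Apart from adenoma 3, the 4 genotypes overlapped or lay within a few points of each other at the last 2 sites.

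In the other runs, some neighbouring sites were steady at very different levels. The second run of 4, on chromosome 17 from 47605181 to 47606030, had control means of 31.7, 78.5, 71.4 and 70.2%. Its first site was at 31.8, 34.5 and 29.0% in Tet1 null, 25, 23.7 and 29.7% in Tdg heterozygous, 34.2, 24.7 and 31.1% in double heterozygous, and 37.7, 26.02 and 31.2% in control adenomas. Its second site, at position 47605555, was at 86.5, 77.5 and 81.0% in Tet1 null and 81.4, 77.3 and 76.8% in control adenomas. No value of the first site came near any of these of the second, in either genotype. On chromosome 11 (96833809 to 96834498), 3 sites had control means of 21.2, 66.6 and 58.3%. On chromosome 5 (37365192 to 37366052) they were 68.0, 45.4 and 71.3%, and on chromosome 6 (120163896 to 120164769) 78.6, 73.2 and 53.4%. Runs of equal size were ranked by smaller mean pooled standard deviation, so these runs of 3 sites were the steadiest of 9.

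**Figure D3:**
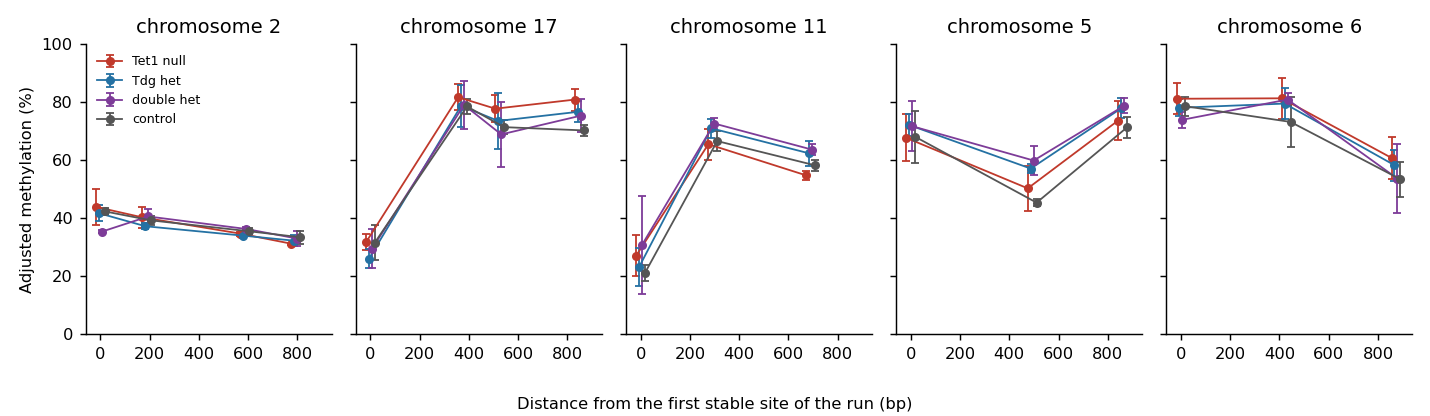
Adjusted methylation (vertical axis, %) of the stable sites in the 5 runs with the most members, by distance from the first site of the run (horizontal axis, bp, with genotypes shifted slightly so that bars can be told apart). Among runs of equal size, those with the smaller mean pooled SD were taken. Points are genotype means and bars are SDs over 3 adenomas (2 for double heterozygous, without adenoma 3); the run on chromosome 2 is nearly level at 33.5 to 42.4% in control, and the others hold sites far apart in level, such as 31.7 and 78.5% on chromosome 17 and 53.4 and 78.6% on chromosome 6.

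Most stable sites had a single other CCCGGG site nearby. Position did not enter the choice, but depth did, and whether the depth limit favours sites with neighbours was not tested. No other CCCGGG site lay within 500 bp at 0.64% of stable and 0.622% of variable sites. The shares were 1.13% of sites at 80% or above and 1.16% of sites below 20%. Of the stable sites, 89.3% had exactly 1 other CCCGGG site within 500 bp, as had 89.4% of the variable sites, 86.0% of the sites at 80% or above and 48.5% of the sites below 20%. Among the 1768 stable sites with another deep site within 500 bp, 649 had a stable one there (36.7%, 95% Clopper-Pearson interval 34.5 to 39.0%), and 435 of 1217 variable sites had a variable one (35.7%, 33.0 to 38.5%). Stable sites were grouped into 1544 runs, of which 1226 held 1 site, 307 held 2, 9 held 3 and 2 held 4. Neighbouring sites can come from the same molecules and are not independent.

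Neighbouring stable sites often differed in level. Over 330 adjacent pairs of stable sites within 500 bp, the control means differed by a median of 12.9 points (interquartile range 5.79 to 26.4). They were within 10 points of each other in 130 pairs and 30 points or more apart in 66 pairs. Across these pairs the levels correlated with r = 0.204, and across 220 pairs of variable sites with r = 0.144, where the sites of a pair share libraries and fragments. Of all neighbours of stable sites within 500 bp, 36.1% were stable, 18.9% variable, 29.3% at 80% or above and 15.7% below 20%. Of the neighbours of variable sites, 27.2% were stable, 34.3% variable, 18.9% at 80% or above and 19.5% below 20%. Among all deep sites these classes made up 11.1, 7.63, 12.02 and 69.2% in the same order.

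Stable sites were found on all 19 autosomes. They made up 48.7% (chromosome 10) to 67.5% (chromosome 19) of the intermediate sites of a chromosome. By number, chromosome 11 held the most, 209 of its 1541 deep sites (13.6%), and chromosome 18 the fewest, 46 of 481 (9.56%). Chromosome 13 had the smallest share of deep sites, with 49 of 630 (7.78%).

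Double heterozygous adenoma 3 allowed a look at stability in a library that had no part in the choice. At the 1875 stable sites it differed from the mean of double heterozygous adenomas 1 and 2 by a median of 5.95 points (95% interval of the median from order statistics 5.64 to 6.29), and at variable sites by 7.33 points (6.84 to 7.73). Its own shallow depth, with that of the other pair, would give 3.26 and 3.35 points by counting alone. With at least 100 reads in that library, the medians were 5.48 points (4.85 to 5.89) at 751 stable sites and 5.92 points (5.24 to 6.96) at 554 variable sites. These intervals, taken over sites, overlap. Against single adenomas at that depth, the medians at stable sites were 7.82 points (adenoma 1) and 5.95 points (adenoma 2). At variable sites they were 11.21 and 8.855 points. Against the control mean they were 5.87 points at stable and 8.12 points at variable sites. Adenomas 1 and 2, which did enter the choice, differed from each other by a median of 8.07 points at stable and 17.7 points at variable sites. Their mean is therefore not independent of the choice, nor are their single values or the control mean. With 1 unused library no test was made.

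In that same library 1498 of the 1875 stable sites (79.9%) read between 20 and 80%, as did 1124 of the 1287 variable sites (87.3%). Control levels of 70 to 80%, next to the upper limit, were held by 33.0% of stable and 12.8% of variable sites. The shares between 20 and 80% were not matched for level. Differences of over 20 points from the mean of the other double heterozygous adenomas were seen at 58 stable sites (3.09%) and 98 variable sites (7.61%). Among sites with at least 100 reads there, the farthest was position 57495207 on chromosome 13, at 60.6 and 44.2% in adenomas 1 and 2 and 81.3% in adenoma 3. At position 75543814 on chromosome 15 the values were 55.6, 50.5 and 26.4%, and at 87889776 on chromosome 15 they were 65.0, 70.2 and 41.0%. In each of these 3 cases adenoma 3 lay outside the other pair by more than the spread of the pair.

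Just inside the limit of spread were position 146781348 on chromosome 4 (9.999 points), 21157434 on chromosome 9 (9.995 points) and 46826819 on chromosome 19 (9.993 points). Just outside it were 163858272 on chromosome 2 (10.003 points), 89617393 on chromosome 1 (10.003 points) and 56547255 on chromosome 17 (10.013 points). The first of the sites inside read 27.03, 16.4 and 13.5% in Tet1 null and 26.1, 22.1 and 27.2% in control adenomas, while the first outside read 24.9, 49.5 and 32.8% in Tet1 null and 22.2, 29.3 and 31.4% in control adenomas. At the lower limit of level, position 116121874 on chromosome 11 lay inside with control values of 15.3, 24.1 and 20.9%, and 172116551 on chromosome 2 lay outside with 26.1, 15.3 and 18.5%. At the upper limit, position 30141485 on chromosome 12 lay inside with 89.0, 90.7 and 60.3%. There 1 control adenoma brought the mean below 80%, and the 9 values of the mutant genotypes were 88.5 to 93.95%. Position 56482315 on chromosome 14 lay outside with control values of 77.9, 74.5 and 87.6%.

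The other sites with the smallest spread were nearly as steady within a genotype, though not always between genotypes. Position 129670045 on chromosome 4 was at 79.0, 78.4 and 78.7% in Tet1 null, 77.8, 76.0 and 77.1% in Tdg heterozygous, 82.7, 86.1 and 71.3% in double heterozygous and 76.8, 75.7 and 77.5% in control adenomas. Position 32836528 on chromosome 2 was at 87.0, 84.3 and 87.2% in Tet1 null, 83.0, 86.3 and 82.1% in Tdg heterozygous, 83.3, 85.7 and 81.7% in double heterozygous and 79.0, 78.7 and 81.8% in control adenomas. Position 73015771 on chromosome 7 was at 74.3, 78.2 and 78.6% in Tet1 null, 81.1, 83.2 and 80.3% in Tdg heterozygous, 79.4, 77.1 and 76.3% in double heterozygous and 79.2, 75.6 and 76.7% in control adenomas. All 3 Tet1 null values lay above the control values on both chromosome 4 and chromosome 2. All 3 Tdg heterozygous values did so on both chromosome 2 and chromosome 7.

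Between genotypes the stable sites differed by a few points on average. Their mean level was 57.2, 65.1 and 61.3% in Tet1 null adenomas, 58.7, 59.7 and 59.9% in Tdg heterozygous, 63.4, 59.7 and 60.02% in double heterozygous and 57.0, 55.04 and 56.6% in control adenomas. All 9 mutant values lay above the 3 control values, Tet1 null adenoma 1 by the least. The genotype means were 61.2% ± 3.98, 59.4% ± 0.668, 61.02% ± 2.03 and 56.2% ± 1.02 in that order (SD, n = 3 each), which are differences from control of 5.01, 3.24 and 4.83 points. Among adenomas with Y-chromosome reads, Tet1 null 1 and 2 had 57.2 and 65.1% against 57.0% in control 1, and among those without, Tet1 null 3 had 61.3% against 55.04 and 56.6% in control 2 and 3. Without Tet1 null adenoma 2 the first of these differences was 3.05 points. The control mean chose the sites, and no test was made over them. With sites chosen by the mean of the 4 genotype means in place of the control mean, an alternative added after the data were seen, the differences were 5.28, 2.69 and 4.58 points.

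The standards cannot serve as a check on this shift, because the authors adjusted the levels with them. Over the 13 intermediate standards the adjusted mean level was 40.2% in Tet1 null, 40.3% in Tdg heterozygous, 40.3% in double heterozygous and 40.1% in control libraries. This mean differed by less than 0.5 points between single libraries. Single standards could differ more in double heterozygous adenoma 3. There 1 standard read 62.9%, against 46.9 to 53.2% in the other libraries, and another read 23.5%, against 23.3 to 24.4%. Variable sites averaged 57.9% ± 7.43, 52.4% ± 2.95, 55.8% ± 4.58 and 50.02% ± 1.22 in the same order. The rank of the Tet1 null adenomas was the same at both kinds of site, with adenoma 2 highest and adenoma 1 lowest, and variable sites put adenoma 1 among the controls at 50.1%. In whole adenomas, a different share of cell types and a different level within cells cannot be told apart.

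**Figure D4:**
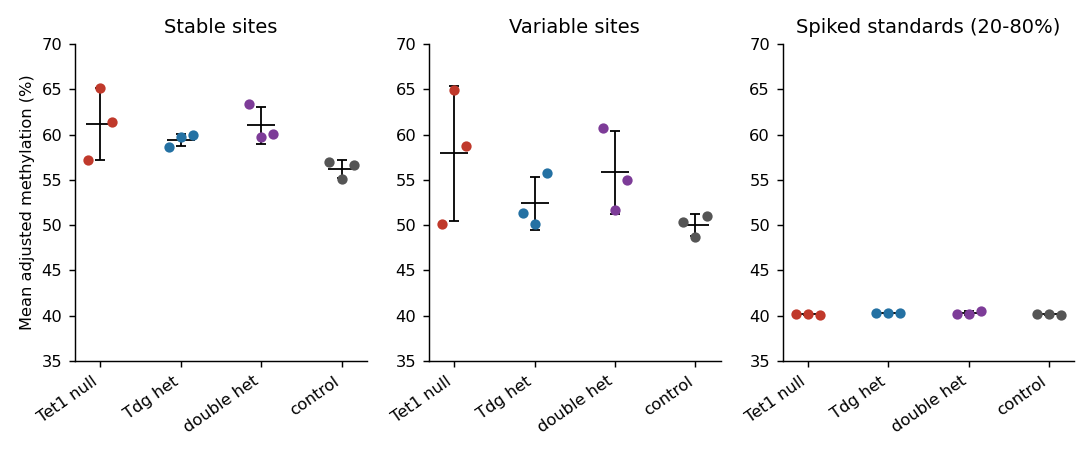
Mean adjusted methylation (vertical axis, %) of each adenoma (points) over the 1875 stable sites, the 1287 variable sites and the 13 intermediate standards, with the genotype mean and SD over 3 adenomas (bars). At stable sites every mutant adenoma lies above the 3 controls, Tet1 null adenoma 1 (57.2%) only narrowly above control adenoma 1 (56.96%), and the standards, used by the authors for the adjustment, lie at about 40% in all 12 libraries.

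Site by site, the shift was small and mostly upward. Of the 1875 stable sites, 1427 had a higher mean in Tet1 null than in control adenomas (76.1%), 1353 did so in Tdg heterozygous (72.2%) and 1459 did in double heterozygous adenomas (77.8%). These shares were 82.4, 62.9 and 75.6% at variable sites, and 58.7, 46.9 and 48.2% over all 16868 deep sites, most of which were below 20%. The median difference over stable sites was 4.37 points with Tet1 null, 3.31 points with Tdg heterozygous and 4.93 points with double heterozygous adenomas. In the same order it was 7.79, 2.62 and 6.44 points over variable sites, and 0.05, 0 and 0 points over all deep sites. The 3 comparisons share the control adenomas, so they are not independent of each other.

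Large differences were few and nearly all upward. A mean 20 points or more above control was seen at 58 stable sites with Tet1 null, 19 sites with Tdg heterozygous and 32 sites with double heterozygous adenomas. A mean 20 points or more below control was seen at 0, 5 and 0 in the same order. As shares, the rises were 3.09, 1.01 and 1.71% of stable sites and 8.78, 2.25 and 4.35% of variable sites. Over all deep sites, most of which were below 20%, they were 1.51, 0.285 and 0.539%. The falls were 0, 0.267 and 0% of stable sites and 0.00593, 0.160 and 0.0474% of all deep sites. The 4 genotype means lay within 5 points of each other at 308 stable sites (16.4%) and 55 variable sites (4.27%), and 20 points or more apart at 106 stable sites (5.65%) and 233 variable sites (18.1%).

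Differences by level followed no simple order. Stable sites at 20 to 40% in control averaged 35.04% in Tet1 null, 30.99% in Tdg heterozygous, 33.7% in double heterozygous and 28.7% in control adenomas. Those at 40 to 60% averaged 56.9, 54.8, 56.7 and 50.4% in the same order, and those at 60 to 80% averaged 75.4, 74.8, 75.8 and 71.6%. The median difference in Tet1 null adenomas was 5.55, 5.93 and 3.49 points in the 3 bands, and in Tdg heterozygous adenomas 2.20, 3.98 and 3.49 points. The control mean set the bands as well as the differences.

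The first test asked which sites differ when Tet1 is absent. Of the 1875 stable sites, 15 rose in Tet1 null adenomas and 0 fell (edgeR quasi-likelihood test, adjusted p under 0.05 over 15004 sites). Of all tested sites, 2.08% were called in this comparison (2.05% higher, 0.0267% lower), and of the variable sites 29 of 1287 were. The choice of sites used the control mean and the spread, so nothing is read from the smaller share of 0.80%. At the 15 sites the median rise was 30.4 points (range 17.7 to 61.5), and at 14 of them all 3 Tet1 null values lay above the 3 control values. At an unadjusted p under 0.05 there were 133 stable sites (7.09%, against 9.64% of all tested sites). The groups did not overlap at 270 stable sites with Tet1 null higher (14.4%, against 11.1% of all tested sites) and at 20 with Tet1 null lower (1.07%, against 1.05%).

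The largest rise was at position 43741702 on chromosome 18, at 93.3, 78.7 and 91.4% in Tet1 null adenomas against 37.1, 15.8 and 26.04% in control adenomas. The difference was 61.5 ± 7.65 points (SE) with an edgeR adjusted p of 5.44e-10, and it passed in all 19 alternatives. The adjusted p was much larger by limma, at 0.00328 on counts and 0.0371 on the logit of the adjusted level. Tdg heterozygous adenomas were at 7.73, 3.21 and 10.9% and double heterozygous adenomas at 23.1, 11.6 and 11.9%. The Tet1 null adenomas were therefore the only high group at this site, and each was far above every other adenoma.

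At position 29957246 on chromosome 7 the level was 68.6, 54.02 and 72.8% in Tet1 null against 29.6, 22.5 and 25.5% in control adenomas. Tdg heterozygous adenomas were at 31.1, 30.6 and 27.1% and double heterozygous at 45.3, 24.4 and 24.7%, so only the Tet1 null values exceeded 50%. The rise of 39.3 ± 6.06 points had an edgeR adjusted p of 0.00344 (0.0749 by limma on counts, 0.00155 to 0.109 over the alternatives). Position 124642518 on chromosome 8 was at 80.96, 84.4 and 80% in Tet1 null and 46.5, 40.2 and 46.6% in control adenomas, a rise of 37.3 ± 2.50 points (edgeR adjusted p = 0.00308). There the double heterozygous adenomas lay between, at 62.9, 65.1 and 71.2%, and overlapped neither group. The Tdg heterozygous adenomas, at 28.4, 60.5 and 55.5%, lay on both sides of the control values. By limma the adjusted p of this rise was 0.0676 on counts and 0.0752 on the logit.

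Position 93241160 on chromosome 1 was at 62.7, 85.9 and 69.9% in Tet1 null and 43.5, 40.1 and 29.8% in control adenomas (35.01 ± 7.99 points, edgeR adjusted p = 0.0114). Position 147623676 on chromosome 4 was at 53.6, 61.7 and 43.9% in Tet1 null and 17.3, 24.6 and 18.8% in control adenomas (32.8 ± 5.62 points, edgeR adjusted p = 0.0139). The groups did not overlap at either site, but only on chromosome 4 were both heterozygous genotypes near control, with means of 23.5 and 27.8% against 20.2%. On chromosome 1 they were at 56.3% (Tdg heterozygous) and 64.2% (double heterozygous) against 37.8% in control.

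The 15 rises differed in what the other genotypes did, a description made after the values were seen. A neighbouring pair on chromosome 11, 94881111 and 94881342, was higher in Tet1 null adenomas at both sites. These sites had 378 to 774 and 378 to 777 reads in the 11 adenomas of the choice. They can come from the same molecules and are not independent. The first was at 88.5, 86.6 and 89.4% in Tet1 null and 55.8, 64.1 and 63.01% in control, and the second at 82.1, 71.9 and 74.8% in Tet1 null and 58.97, 36.6 and 42.2% in control. The spread of the second, 9.99 points, was just under the limit. At 5 of the 15 sites, including the one on chromosome 1, both heterozygous genotypes were also 10 points or more above control. At position 27281339 on chromosome 15, for one, the means were 92.7% in Tet1 null, 91.6% in Tdg heterozygous, 91.5% in double heterozygous and 73.4% for control, whose single values were 60.2, 90.97 and 69.2%. This was the 1 called site whose groups overlapped. At 4 of the 15, both were within 10 points of control. The rest were of neither kind. Among them, both heterozygous means were more than 10 points below control at 43741702 on chromosome 18 and 116094362 on chromosome 11. Tdg and double heterozygous means were 7.29 and 15.5% against 26.3% at the former, and 60.7 and 58.3% against 72.2% at the latter.

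The smallest called rise was at a steady site. Position 125205891 on chromosome 5, with a pooled standard deviation of 2.90 points, rose by the least of the 15, by 17.7 ± 1.28 points, at 91.3, 93.02 and 92.9% in Tet1 null against 75.4, 76.4 and 72.5% in control adenomas (edgeR adjusted p = 0.0306). Double heterozygous adenomas were at 87.8, 89.1 and 87.7% and Tdg heterozygous adenomas at 82.4, 88.4 and 78.6%, so every mutant value was above every control value. Most of the 15 sites were less steady, and 10 had a standard deviation of 8 points or more.

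**Figure D5:**
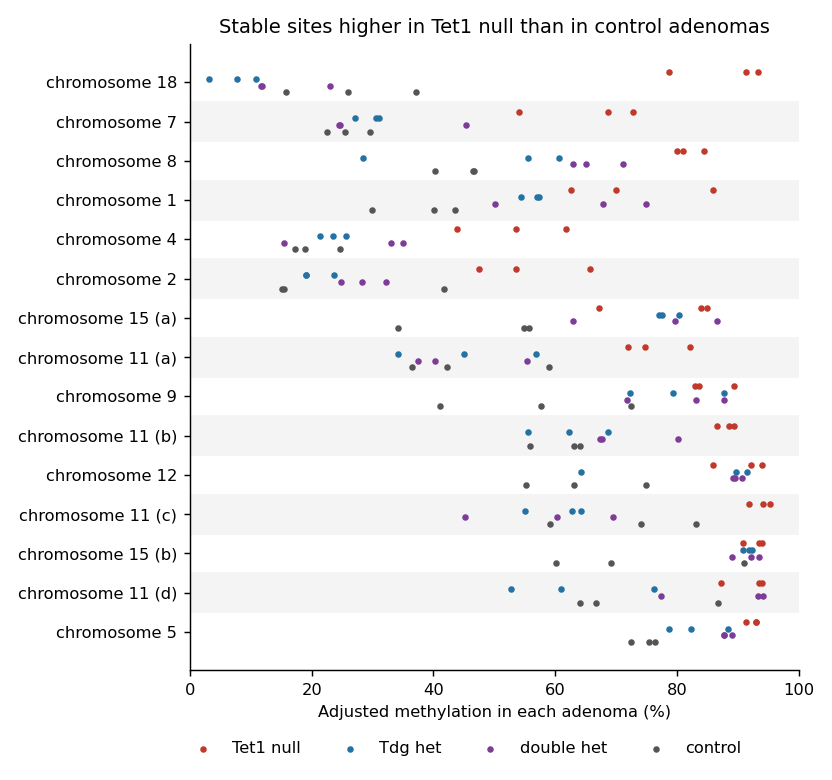
Adjusted methylation in each adenoma (horizontal axis, %) at the 15 stable sites called higher in Tet1 null than in control adenomas, 1 row per site, by size of the difference from the largest (top) to the smallest (letters number the sites of a chromosome). In the top row the Tet1 null values of 78.7 to 93.3% stand clear of all other adenomas, and toward the bottom the other mutant genotypes often lie with Tet1 null.

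The number of rises depended on the method and on single adenomas. Limma on log2 ratios of counts called 1 of the 1875 sites and limma on the logit of the adjusted level 4. With sex, read from the Y chromosome, as a covariate in edgeR the count was 10. The count was not recomputed within one sex, where control has 1 or 2 adenomas. Leaving out an adenoma, the count was 8 without control adenoma 1, 6 without control 3, 6 without Tet1 null adenoma 2 and 3 without Tet1 null adenoma 3. A single site, on chromosome 18, passed in every alternative.

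The next comparisons asked what 1 mutated allele of Tdg changes, alone or with 1 lost allele of Tet1. No stable site was called in Tdg heterozygous adenomas against control (0 of 1875 by edgeR and by both forms of limma; 68 at an unadjusted p under 0.05, 3.63% against 3.51% of all tested sites). Of all tested sites, 0.02% were called. Among the sites with the smallest p, position 35091321 on chromosome 11 was at 90.02, 89.2 and 82.8% in Tdg heterozygous and 50.2, 62.7 and 70.2% in control adenomas (edgeR adjusted p = 0.243). These groups did not overlap, and both other mutant genotypes were also high, with means of 79.3% (Tet1 null) and 83.2% (double heterozygous). Position 75544312 on chromosome 15 was at 77.1, 77.5 and 80.3% against 55.7, 34.1 and 54.8% (adjusted p = 0.565), and was among the 15 rises of Tet1 null adenomas as well.

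In the lower direction, position 43741702 on chromosome 18, the largest rise of Tet1 null adenomas, averaged 7.29% ± 3.87 in Tdg heterozygous and 26.3% ± 10.6 in control adenomas (edgeR adjusted p = 0.243). Position 93063364 on chromosome 8 was at 32.3, 24.3 and 39.2% in Tdg heterozygous and 48.4, 69.2 and 79.9% in control adenomas (adjusted p = 0.309). Both pairs of groups were free of overlap, with control spreads of 10.6 and 16.04 points. The groups did not overlap at 294 stable sites with Tdg heterozygous adenomas higher (15.7%, background 5.98%) and at 38 with them lower (2.03%, background 1.78%). Background is the share of all tested sites. The spread chose the sites, so nothing is read from these counts.

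Between double heterozygous and control adenomas, too, 0 of 1875 stable sites were called (edgeR and both forms of limma; 78 at an unadjusted p under 0.05, 4.16% against 4.12% of all tested sites), with 0.00666% of all sites called. The smallest p belonged to position 38244758 on chromosome 18, at 63.7, 65.7 and 62.5% in double heterozygous and 17.6, 28.03 and 40.9% in control adenomas, a difference of 35.1 ± 6.80 points (edgeR adjusted p = 0.355). All other mutant adenomas were above control there too, with means of 58.1% (Tet1 null) and 55.5% (Tdg heterozygous). Position 85997845 on chromosome 12 was at 89.2, 89.5 and 90.6% against 63.1, 74.8 and 55.2% in control (adjusted p = 0.355), again without overlap. Among lower sites, position 18908083 on chromosome 11 was at 14.2, 27.01 and 47.7% against 51.3, 47.9 and 39.4%, and 111427023 on chromosome 12 at 6.85, 17.6 and 10.3% against 22.1, 18.8 and 22.5% (adjusted p = 0.88 for both). The groups overlapped on chromosome 11 and did not on chromosome 12. Over all stable sites, the groups did not overlap at 348 with double heterozygous adenomas higher (18.6%, background 6.44%, variable sites 10.3%). They did not overlap at 19 with double heterozygous adenomas lower (1.01%, background 1.47%, variable sites 0.777%). Nothing is read from these counts either, as the spread chose the sites.

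The mutant genotypes were set against each other, where the choice of sites used the spread within each genotype but not these genotypes' levels. Because of the spread, nothing is read from the shares of stable sites in these comparisons. Between Tet1 null and Tdg heterozygous adenomas, 10 stable sites differed, all higher in Tet1 null (edgeR). Of all tested sites, 2.05% were called (2.04% higher). At an unadjusted p under 0.05 there were 69 stable sites (3.68%, background 8.58%). The groups did not overlap at 137 with Tet1 null higher (7.31%, background 8.32%) and 43 with Tet1 null lower (2.29%, background 1.81%). At position 43741702 on chromosome 18 the difference was 80.5 ± 5.09 points (adjusted p = 1.85e-21). Position 116094362 on chromosome 11 was at 95.3, 91.8 and 94.2% in Tet1 null and 64.2, 62.8 and 55.1% in Tdg heterozygous adenomas (33.1 ± 3.01 points, adjusted p = 1.82e-05). Control adenomas, at 83.2, 59.2 and 74.1%, overlapped Tdg heterozygous and not Tet1 null adenomas. Position 152769936 on chromosome 2 was at 47.5, 65.7 and 53.6% in Tet1 null and 19.04, 23.7 and 19.1% in Tdg heterozygous adenomas (34.9 ± 5.59 points, adjusted p = 0.00684). These 3 adjusted p are from edgeR. In the same order of sites, limma gave 4.71e-05, 0.0114 and 0.100 on counts, and 0.00617, 0.0379 and 0.157 on the logit.

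Differences at the positions on chromosomes 7 and 8 already described were 35.5 ± 5.82 and 33.7 ± 10.1 points (edgeR adjusted p = 0.0133 and 0.0106). Across the 10 sites the smallest difference was 25.97 points, at 94881111 on chromosome 11, and no group overlapped the other. The count was 2 by limma on counts and 6 by limma on the logit (5 higher and 1 lower in Tet1 null). It was 6 without Tet1 null adenoma 2, 3 without Tet1 null 3, 4 without Tdg heterozygous 1 and 5 without Tdg heterozygous 2.

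Between Tet1 null and double heterozygous adenomas, 3 stable sites differed, all higher in Tet1 null (0.893% of all tested sites were called, 0.886% higher). These were position 43741702 on chromosome 18 (72.3 ± 5.93 points, edgeR adjusted p = 9.85e-14), 116094362 on chromosome 11 (35.4 ± 7.15 points, 1.65e-05) and 134704424 on chromosome 4. The last was at 48.7, 55.8 and 45.7% in Tet1 null, 26.4, 13.01 and 14.1% in double heterozygous and 22.3, 20.3 and 30.8% in control adenomas (32.2 ± 5.24 points against double heterozygous, adjusted p = 0.0211). All Tet1 null values were above the rest at this site. For the 3 sites in the order given, adjusted p was 0.00121, 0.0241 and 0.264 by limma on counts. By limma on the logit it was 0.0233, 0.0405 and 0.167. The count was 5 without double heterozygous adenoma 1, and 2 by each form of limma. At an unadjusted p under 0.05 there were 33 stable sites (1.76%, background 5.57%). The groups did not overlap at 94 with Tet1 null higher (5.01%, background 6.48%) and 55 with Tet1 null lower (2.93%, background 1.61%).

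Between double heterozygous and Tdg heterozygous adenomas, a difference was called at 0 of 1875 stable sites by edgeR and by both forms of limma (21 at an unadjusted p under 0.05, 1.12% against 2.89% of all tested sites; 0% of all sites were called). Position 45960997 on chromosome 11 came closest, at 93.3, 94.1 and 77.4% in double heterozygous and 60.9, 52.8 and 76.2% in Tdg heterozygous adenomas (adjusted p = 0.545). At 90801910 on chromosome 11 the values were 88.6, 91.4 and 79.6% against 56.9, 53.9 and 81.7% (adjusted p = 0.979), and these overlapped. The lower sites were 81871645 on chromosome 14, with means of 63.1% ± 10.7 against 83.2% ± 3.26, and 22142846 on chromosome 16, with 80.4% ± 11.6 against 91.6% ± 1.79 (adjusted p = 1 for both). The groups did not overlap at 129 stable sites with double heterozygous adenomas higher (6.88%, background 2.83%) and 38 with them lower (2.03%, background 2.35%).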

How the data were processed

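DNA with spiked methylation standards was digested with SmaI, which cuts unmethylated CCCGGG, then with XmaI, per the labels' protocols. The submitters' processing notes name Trim Galore, Bowtie2 and mm9, versions not given in the sources used here, while a rat genome is named in the extraction text. Methylated and unmethylated reads per site are deposited as counts, per the file headers. Raw and standard-adjusted levels are deposited as percent, the adjustment being by the authors.

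The members and lists were chosen with earlier results of these data known. Of 173449 sites, X and Y were left out. The 15004 sites with 100 reads in 11 adenomas and reads of both states were tested, all 12 adenomas in 1 fit, with edgeR 4.0.16 (R 4.3.3): quasi-likelihood test on both counts, 1 depth coefficient per adenoma, dispersion without a trend (common value 0.106), two-sided, Benjamini-Hochberg over all tested sites, threshold 0.05. Fits were tested on simulated data. Alternatives were depth, spread and level limits, sex, leaving out adenomas, and limma 3.58.1 on log2 ratios (2 reads added to each count) or on the logit of the level.

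Named sites were the 5 runs with the most members (ties by smaller mean spread), the 5 smallest spreads and the sites at each limit. Also named were up to 5 called sites per direction and comparison (otherwise the 2 smallest p), and the 3 farthest in the unused library. Other called sites were named after their values were seen. Replicates differed at 27.5 to 70.9% of members (chi-square p under 0.05), so none was taken as a repeated library. Same-numbered adenomas were not treated as pairs.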

Additional observations from a re-analysis of the deposited data

Results flagged for a closer look

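At 10 stable sites, Tet1 null and Tdg heterozygous adenomas differed from each other by a test of the difference itself (edgeR, adjusted p under 0.05), so their differences from the shared control adenomas are unequal there. The same was true at 3 stable sites for Tet1 null and double heterozygous adenomas. In all of these Tet1 null adenomas were the higher group, and at position 43741702 on chromosome 18 Tdg heterozygous adenomas averaged 7.29% against 26.3% in control, on the other side of control from Tet1 null at 87.8%. Groups of 3 adenomas are too small for the check for single outlying adenomas, which was not run.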

How the results depend on the processing

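The number of stable sites was 1031 with 300 reads, 307 with a spread below 5 points, 2893 below 15 points and 974 at levels of 30 to 70%. With all 12 adenomas in the rule it was 786, of which 737 were among the 1875. That rule also asks for 100 reads in double heterozygous adenoma 3, which only 751 of the 1875 sites had. Leaving out an adenoma gave 1747 to 2021. In Tet1 null against control, 9 sites were called with 300 reads, 1 and 4 by limma on counts and on the logit, and 3 to 20 without 1 adenoma. Between Tet1 null and Tdg heterozygous adenomas, limma gave 2 and 6 and leaving out 1 adenoma 3 to 12. Between Tet1 null and double heterozygous, 300 reads gave 5 and leaving out 1 adenoma 2 to 5. The 3 remaining comparisons stayed at 0 called members in every alternative, and leaving out 1 adenoma gave 0 to 0. The replicate block gave 8 rises in Tet1 null against control, all among the 15; same-numbered adenomas deviated together with r of -0.423 to 0.237, and 1 of 12 correlated best with its own number. Mean differences from control over stable sites stayed positive in every alternative, and without 1 adenoma were 3.05 to 7.03 points in Tet1 null, 2.66 to 3.63 in Tdg heterozygous and 3.66 to 5.49 in double heterozygous adenomas. The deviation of double heterozygous adenoma 3 was 5.48 points with 100 reads there, 5.51 with 50, and 6.58 on the raw level. The share of stable sites with a stable neighbour was 100% within 100 bp, where only 2 have any. Of the values of named sites under alternatives, 597 kept direction and side of the threshold, 151 kept direction and lost the call, and none reversed. The 597 include values of sites not called in the main fit, which had no call to lose, so they overstate how well calls held. Depth limits double heterozygous adenoma 3, with a median of 91 reads at stable sites.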
